A study of Mus musculus with 7 samples.

Results

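The interleukins and interleukin receptors described here are the 79 genes, of 33864 listed in the 3 count tables, whose symbol starts with Il followed by a digit; 2 interleukin genes were not used here. The choice rested on names and used no measured value, although earlier results of these data were known when it was made. The group held 33 ligands, 37 receptor chains, 7 antagonists or decoy receptors, the enzyme gene Il4i1 and the antisense transcript gene Il1bos, and 65 of the 79 were listed in every table. The genes were read in single-cell RNA-sequencing (scRNA-seq) data from the pancreata of 7 C57BL/6 mice, 2 months old, each of which gave 1 library. The 2 wild-type (WT) and the 3 i4F mice drank doxycycline at 1 mg/ml for 7 days. The i4F mice were heterozygous for a polycistronic insert in Pparg that makes Oct4, Sox2, Klf4 and c-Myc when doxycycline is given, and for the transactivator in Rosa26, so that factors were induced in all tissues and not in a chosen cell type. The 2 caerulein mice received 7 hourly injections of this cholecystokinin analogue at 100 µg/kg on each of 2 days, a model of mild acute pancreatitis. Their labels give no doxycycline, so that caerulein and the lack of doxycycline cannot be told apart in the comparison with WT mice.

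Interleukins are secreted proteins through which leukocytes and stromal cells signal to each other, and each acts on cells that carry the matching receptor chains. Members of the interleukin 1 family, among them Il1b and Il33, act through receptors that recruit the adaptor MyD88. Of these, Il1b is held in check by the receptor antagonist Il1rn and the decoy receptor Il1r2. Interleukin 6 and interleukin 11 each bind a private chain and then the shared signalling chain gp130, the product of Il6st, while interleukin 10, which restrains macrophages, binds Il10ra and Il10rb, and both routes activate JAK kinases and STAT3. Pancreatic stellate cells are the fibroblast-like cells of the gland, and macrophages are its main resident leukocytes.

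The sequences before the start sites of 3 of the 4 ligands followed here are given below. They are the 250 bases before the RefSeq start site (GRCm38.p6), 5′ to 3′ on the strand of the gene. Capitals mark matches to 4 motifs searched on both strands, AP-1 (TGANTCA), C/EBP (TTGCNNAA), GAS (TTCNNNGAA) and κB, of which none overlapped another in these 3 windows. The Il6 window (chr5:30012864-30013113, plus strand) held an AP-1 match at -249 to -243, a C/EBP match at -128 to -121 and a κB match at -44 to -35, counted from the start site. The windows of Il1b (chr2:129371140-129371389, minus strand) and Il33 (chr19:29924863-29925112, plus strand) held no match to these letters.
Il6: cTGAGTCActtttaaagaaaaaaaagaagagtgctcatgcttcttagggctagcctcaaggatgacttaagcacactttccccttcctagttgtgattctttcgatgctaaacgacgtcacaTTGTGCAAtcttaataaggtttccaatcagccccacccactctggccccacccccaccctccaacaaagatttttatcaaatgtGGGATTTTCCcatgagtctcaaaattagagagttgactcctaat
Il1b: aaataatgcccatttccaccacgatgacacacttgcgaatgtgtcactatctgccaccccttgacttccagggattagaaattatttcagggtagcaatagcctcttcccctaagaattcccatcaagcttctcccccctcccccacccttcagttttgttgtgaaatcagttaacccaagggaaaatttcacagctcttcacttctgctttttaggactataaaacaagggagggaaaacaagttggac
Il33: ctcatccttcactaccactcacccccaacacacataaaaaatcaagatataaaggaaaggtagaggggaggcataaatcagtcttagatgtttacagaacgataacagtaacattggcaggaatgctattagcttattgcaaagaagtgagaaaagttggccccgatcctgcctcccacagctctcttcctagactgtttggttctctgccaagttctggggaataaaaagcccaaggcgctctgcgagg
Among 32841 promoters of this length, 6.75% held the AP-1 letters, 9.57% those of C/EBP, 7.02% those of GAS and 7.25% those of κB. Of the 62 members with a promoter entry, 12, 12, 7 and 4 did, respectively. Il10 was not among them.

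The libraries held 4327 and 6326 cells (WT), 9811, 8218 and 7614 cells (i4F), and 15138 and 7039 cells (caerulein), with 15469018 to 64784216 unique molecular identifiers (UMIs) each. A UMI stands for a captured mRNA molecule at its 3′ end, so that levels do not grow with transcript length; levels below are given as CPM, the usual depth-scaled count, over the UMIs of listed genes, summed over the cells of a mouse. Library i4F 3 stood apart, with a median of 1248.5 UMIs per cell against 1986 to 4247 in the others. Library names fell into 2 series, the first with WT 1 and the i4F mice and the second with WT 2 and the caerulein mice. Libraries shared 3 to 39 cell barcodes per pair. Cell types are the clusters named by the authors, and several carried markers of another type. The WT cluster of activated stellate cells was led by pericyte genes (median fold over the other cells of 24.5), WT lymph nodes by lymphatic endothelial genes (18.1), and i4F follicular B lymphocytes by plasma cell genes (218). The WT B lymphocyte cluster carried plasma cell genes (79.1) as well as B cell genes (44.9). The B lymphocyte cluster of caerulein mice carried plasma cell genes (4.01, with 3 of 4 over 1.5-fold) and dendritic cell genes (2.79, 10 of 11) above those of B cells (1.88, 3 of 6). By mean fold its dendritic cell genes led, at 46.6 against 3.63 for plasma cell and 2.77 for B cell genes. This cluster was not compared with the B lymphocytes of WT mice. The second activated stellate cluster of i4F mice was led by mesothelial genes (4.05, against 1.45 for stellate genes) and their second acinar cluster by ductal genes (2.95, against 1.27 for acinar genes). The acinar values rest on 5 genes, since the count tables list no others of the longer acinar marker list. The third macrophage cluster of caerulein mice and the second of i4F mice were led by neutrophil genes (11.5 and 113), and the second of WT and the third of i4F mice by dendritic cell genes (4.80 and 2.98). No caerulein cluster was named NK or T cells. For the class comparisons, clusters were joined by name, whatever genes led them, into macrophages, stellate, endothelial, acinar, ductal, endocrine, NK and T cells and B lymphocytes, and the follicular B lymphocytes of i4F mice were kept apart from the last. The WT lymph nodes cluster, led by lymphatic endothelial genes, lay outside the endothelial class. The endothelial clusters of i4F and caerulein mice also carried lymphatic genes (3.66 and 3.14, with 4 of 6 over 1.5-fold in each). The endothelial class thus differs in makeup between WT and treated mice. Smooth muscle clusters, led by pericyte genes in i4F and caerulein mice (16.1 and 15.4), lay outside the stellate class. The pericyte-led WT cluster, named stellate, lay in it. The mesothelium clusters of WT and caerulein mice, led by mesothelial genes (14.7 and 7.92), also lay outside the stellate class. The mesothelial-led stellate cluster of i4F mice lay in it. Fibroblast-led stellate clusters held 4249, 2555 and 113 cells in i4F 1, 2 and 3. Stellate levels of i4F 3 thus came mostly from mesothelial-led cells.

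Most of these genes were scarce. Over all libraries 34 members had at least 1000 UMIs, 16 had at least 100 but under 1000, 20 had at least 10 but under 100 and 9 had fewer than 10, among them Il1f5 at 0. Il1b alone gave 48.0% of their 654147 UMIs. The members together made up 1352 and 1362 CPM in WT mice, 3270, 4294 and 1749 CPM in i4F mice, and 2796 and 2049 CPM in caerulein mice, so that every treated library lay above both WT libraries.

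**Figure D1:**
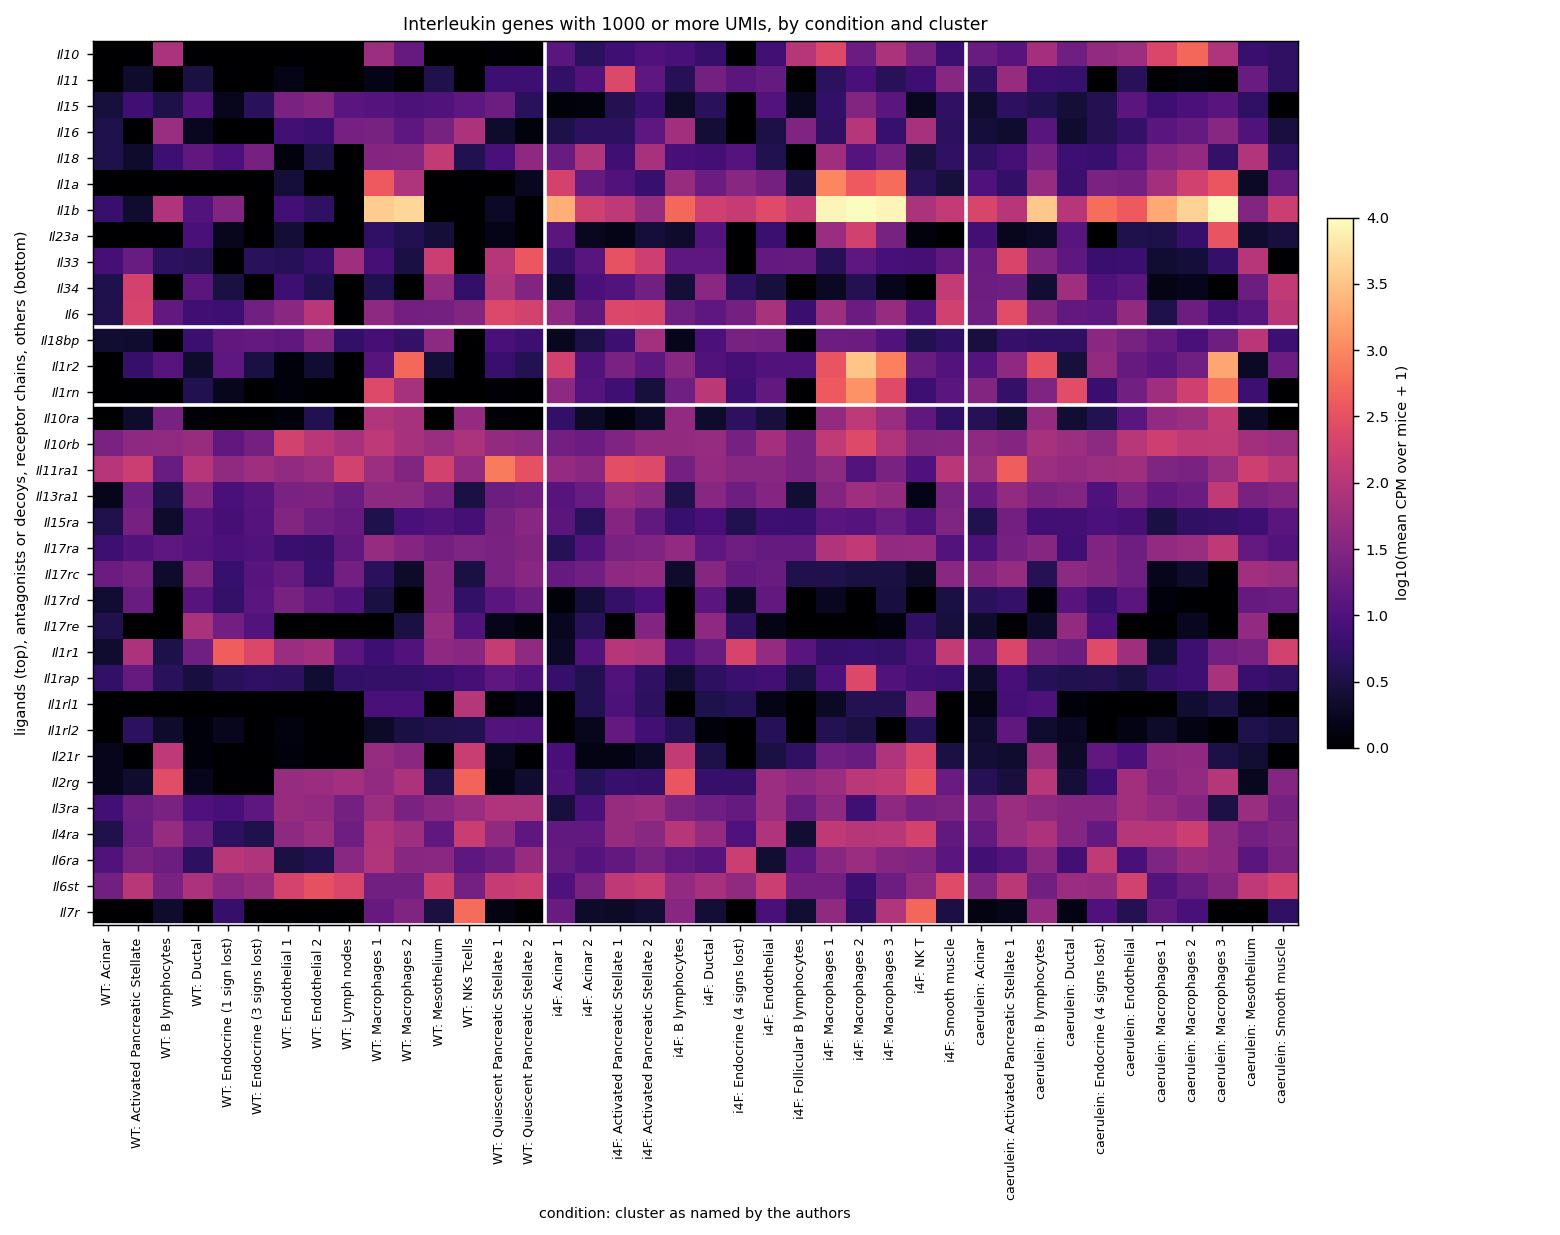
Level of the 34 members with at least 1000 UMIs (rows, by role) in each cluster of each condition (columns, as named by the authors), with colour giving log10 of the mean CPM over mice plus 1. Il1b was brightest in macrophage clusters (8596 ± 2262 CPM in the first of i4F mice, SD), and Il7r stood out in NK and T cells (597 and 531 CPM in WT and i4F mice).

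Most Il6 UMIs fell in clusters named stellate cells in every library. These held 86.4% and 90.4% of its UMIs in WT, 90.6%, 86.6% and 89.8% in i4F, and 92.7% and 94.7% in caerulein mice. The level of Il6 in stellate cells was 284 and 177 CPM in WT, 130, 253 and 430 CPM in i4F, and 253 and 294 CPM in caerulein mice, and the 3 groups overlapped. Within WT mice the first quiescent stellate cluster gave 59.8% and 74.7% of the UMIs. In i4F 3 the mesothelial-led cluster, which held 1167 of its 1280 cells named stellate, gave 73.6% of the Il6 UMIs, and the fibroblast-led one 16.2%. Of stellate cells, 33.4% and 27.6% (WT), 46.8%, 59.6% and 44.1% (i4F), and 66.4% and 51.4% (caerulein) had an Il6 UMI. After each cell was thinned to 500 UMIs, Il6 shares were 9.17% and 7.95%, 6.49%, 11.4% and 17.2%, and 10.7% and 12.6%, and the groups overlapped (36 to 214 stellate cells per library were too shallow to count). B lymphocytes, a type that should hold little of it, had thinned Il6 shares of 0% to 0.714%. Endothelial cells came next among the classes of WT mice for Il6, at 61.6 and 32.9 CPM, and i4F smooth muscle at 178 ± 43.0 CPM (SD, n = 3). Macrophages held Il6 at 39.9 and 23.7 CPM in WT and at 42.4, 88.9 and 39.4 CPM in i4F, but at 7.92 and 5.03 CPM in caerulein mice. The macrophages with an Il6 UMI also carried more stellate markers than those without, 8664 against 63.6 and 9452 against 1581 summed CPM in WT, 2089 against 569, 1147 against 316 and 1531 against 147 in i4F, and 2264 against 222 and 1182 against 192 in caerulein mice. The part of those markers in the macrophage Il6 level was not tested.

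The chains of the interleukin 6 receptor were spread more widely than the ligand. Il6ra, the private chain, was highest per UMI in endocrine cells, at 98.2 and 96.4 CPM in WT, 87.7, 264 and 131 CPM in i4F, and 134 and 112 CPM in caerulein mice. Because endocrine cells were few, the largest part of the Il6ra UMIs nevertheless fell in stellate cells in WT (41.8% and 43.7%) and i4F mice (62.4%, 48.7% and 30.5%), and in macrophages in caerulein mice (58.4% and 59.0%). Such shares, here and elsewhere, grow with the UMIs a class gives. Of all UMIs, stellate cells gave 5338334 of 16822487 and 9127167 of 20627391 in WT mice. In i4F mice they gave 43312159 of 60538520, 23156812 of 37752422 and 4041500 of 15469018. Il6st, the shared signalling chain, was found in all stromal classes. Endothelial cells of WT mice held Il6st at 220 ± 41.8 CPM and WT lymph nodes at 221 ± 1.56 CPM (SD, n = 2), and its level in stellate cells was 161 and 121 CPM in WT, 109, 127 and 145 CPM in i4F, and 97.5 and 130 CPM in caerulein mice. The Il6st levels of the 3 groups overlapped in stellate cells, and its log2 fold change there was 0.02 ± 0.21 (SE) in i4F and -0.15 ± 0.23 in caerulein mice. The fits cited here and below are edgeR quasi-likelihood tests on UMIs summed per mouse, two-sided and adjusted by Benjamini-Hochberg over all genes tested (adjusted p 0.957 and 0.642 for Il6st).

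Most Il1b UMIs fell in clusters named macrophages. These held 97.8% and 96.1% of its UMIs in WT, 92.8%, 93.6% and 94.8% in i4F, and 80.6% and 79.9% in caerulein mice. Within them the dendritic-led clusters gave 54.8% and 43.6% of the Il1b UMIs of WT mice and 54.3% of those of i4F 3. A further 11.5% and 13.5% of the caerulein UMIs of Il1b came from the cluster named B lymphocytes. The level of Il1b in macrophages was 5755 and 2467 CPM in WT, 9100, 10640 and 4719 CPM in i4F, and 3366 and 1976 CPM in caerulein mice. The WT mice differed from each other by more than the caerulein mice did, and i4F 3 fell between the WT mice. By cluster, Il1b was highest in caerulein mice in the neutrophil-led cluster, at 13140 ± 1902 CPM (SD, n = 2). In i4F mice the neutrophil-led, the dendritic-led and the first macrophage cluster, which carries macrophage markers, held Il1b at 11180, 12540 and 8849 CPM in i4F 1 and at 9567, 9145 and 10720 CPM in i4F 2, so that their order differed between the mice. Cells with an Il1b UMI made up 53.4% and 30.7% of WT, 79.2%, 82.2% and 47.5% of i4F, and 50.3% and 36.7% of caerulein macrophages at 500 UMIs per cell.

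Il1r1, the signalling receptor for both interleukin 1 ligands, lay in endocrine and stellate cells, among others. Smooth muscle of caerulein mice held it at 186 ± 99.35 CPM and endothelial cells of WT mice at 56.1 ± 12.6 CPM (SD, n = 2 each). Endocrine Il1r1 levels were 271 and 439 CPM in WT, 155, 220 and 239 CPM in i4F, and 233 and 286 CPM in caerulein mice. In stellate cells Il1r1 stood at 106 and 124 CPM in WT and at 79.5, 115 and 139 CPM in i4F, but at 207 and 245 CPM in caerulein mice, where both libraries exceeded all others. Stellate cells held 53.2% and 57.5% of Il1r1 UMIs in WT and 75.9% to 95.1% in treated mice. Il1rap, the accessory chain that Il1r1 and Il1rl1 share, was low in stellate cells (14.4 and 9.64 CPM in WT), which nevertheless held 51.8% to 71.0% of its UMIs in each library, and at its highest level in the neutrophil-led clusters of treated mice, at 241 ± 11.5 CPM in i4F and 74.2 ± 17.2 CPM in caerulein mice (SD, n = 2 each).

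The antagonists of interleukin 1 had carriers of their own. Il1rn, which encodes the receptor antagonist, was held by macrophages in WT (84.0% and 95.9% of UMIs) and i4F mice (88.0% to 88.8%). In caerulein mice the macrophage share of Il1rn was 69.6% and 51.6%, and ductal cells held 17.8% and 32.4%. The level of Il1rn in ductal cells was 3.88 and 1.43 CPM in WT, 154, 170 and 18.8 CPM in i4F, and 279 and 285 CPM in caerulein mice, without overlap between WT and treated mice. Il1r2, the decoy receptor, fell mostly in macrophages in WT mice (93.5% and 58.0%), at 489 and 88.2 CPM. The dendritic-led cluster alone gave 92.1% and 56.2% of the WT Il1r2 UMIs, at 558 ± 409 CPM against 10.9 ± 9.76 CPM in the first macrophage cluster (SD, n = 2). Macrophage Il1r2 was 218, 948 and 242 CPM in i4F and 33.4 and 26.1 CPM in caerulein mice. By cluster, Il1r2 was highest in the neutrophil-led ones, at 3254 ± 124 CPM in the 2 i4F mice with at least 20 such cells and at 1814 ± 163 CPM in caerulein mice (SD, n = 2). In caerulein mice stellate cells held the largest part of the Il1r2 UMIs, 37.96% and 50.9%, at 42.2 and 40.1 CPM.

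Il10 was scarce in WT pancreas and carried by macrophages in treated mice. The WT libraries held 55 and 65 UMIs of Il10, 50.9% and 16.9% of them in the B lymphocyte cluster, which carried plasma cell genes, and 49.1% and 81.5% in macrophages. Macrophages held 91.6%, 92.1% and 75.7% in i4F and 89.4% and 90.3% in caerulein mice. The level of Il10 in macrophages was 41.5 and 35.9 CPM in WT, 347, 158 and 108 CPM in i4F, and 374 and 234 CPM in caerulein mice, so that all 5 treated libraries lay above both WT libraries. At 500 UMIs per cell, 1.94% and 2.19% of WT, 12.7%, 6.89% and 3.52% of i4F, and 15.04% and 9.38% of caerulein macrophages had an Il10 UMI, against at most 0.655% of acinar cells in any library. The second caerulein macrophage cluster was the highest for Il10, at 537 ± 35.3 CPM (SD, n = 2). Among i4F clusters outside the macrophages, the plasma cell-led one held Il10 at 98.1 ± 51.7 CPM (SD, n = 3). Among caerulein cells named B lymphocytes, those with an Il10 UMI carried macrophage markers at 11950 and 8598 summed CPM, against 3743 and 4077 in the other cells.

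Il10ra, the ligand-binding chain, lay in leukocytes. Macrophages held Il10ra at 103 and 59.7 CPM in WT, 45.5, 43.9 and 36.8 CPM in i4F, and 41.1 and 51.9 CPM in caerulein mice. All treated libraries lay below both WT libraries, but the log2 fold changes of -0.81 ± 0.26 and -0.73 ± 0.29 did not pass the test (adjusted p 0.169 and 0.153). Il10rb, the second chain, which receptors for other cytokines of the family also use, was led by endothelial cells in WT mice, at 172 and 179 CPM. There it stood at 63.5, 47.0 and 92.4 CPM in i4F and at 96.5 and 111 CPM in caerulein mice. Macrophages held the largest part of the Il10rb UMIs in i4F 1 and 2 (49.95% and 55.5%) and in caerulein mice (64.6% and 64.45%), at 144 and 151.5 CPM and at 145.5 and 165 CPM. By cluster, Il10rb was highest in the neutrophil-led one of i4F mice, at 249 ± 40.1 CPM. In caerulein mice the first macrophage cluster led for it, at 170 ± 6.4 CPM. Il10ra was highest in the neutrophil-led clusters, at 117 ± 26.8 CPM in i4F and 133 ± 25.1 CPM in caerulein mice (SD, n = 2 each). The endothelial Il10rb change in i4F mice was -1.27 ± 0.31 on the log2 scale (adjusted p 0.0922, and 0.00539 without i4F 3). The part of lymphatic cells, which the WT class left out, in this change was not tested.

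Il33, an alarmin stored in the nucleus of stromal cells, fell in clusters named stellate cells and mesothelium. The former held 85.5% and 91.2% of its UMIs in WT, 97.96%, 98.45% and 97.5% in i4F, and 92.6% and 95.1% in caerulein mice. The WT mesothelium held 11.6% and 4.62% of Il33 UMIs at 182 and 147 CPM, and the mesothelial-led stellate cluster of i4F 3 held 61.9% of that library's Il33 UMIs. The level of Il33 in stellate cells was 160 and 162 CPM in WT, 158, 342 and 342 CPM in i4F, and 205 and 230 CPM in caerulein mice. Library i4F 1 thus lay at the WT level and the other treated libraries above it. The second quiescent stellate cluster of WT mice held more Il33 (375 ± 43.9 CPM) than the first (102 ± 19.3 CPM; SD, n = 2). WT stellate cells with an Il33 UMI carried fewer pericyte markers than those without, 236 against 3342 and 244 against 1850 summed CPM. Beyond these classes, lymph nodes of WT mice held Il33 at 68.4 and 50.3 CPM, whereas B lymphocytes had a UMI in at most 1.19% of cells at 500 UMIs per cell, against 5.54% to 14.8% of stellate cells.

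Il1rl1, which encodes ST2, the receptor of Il33, was rare, and stellate cells held most of its UMIs in each treated mouse but i4F 3. WT libraries held 25 and 37 UMIs of it. NK and T cells had 92.0% and 43.2% of these, and macrophages 8% and 48.6%, whereas stellate cells had 0% and 8.11%. In treated mice stellate cells held 93.9%, 92.4% and 33.3% (i4F) and 89.2% and 80.8% (caerulein), and in i4F 3 NK and T cells held 41.7%. The level of Il1rl1 in NK and T cells was 126 and 68.5 CPM in WT and 51.5, 13.2 and 11.04 CPM in i4F mice. The WT NK and T cells with an Il1rl1 UMI, 11 and 12 cells, carried markers of type 2 innate lymphoid cells at 5855 and 7261 summed CPM against 673 and 1286 in the other cells. Their NK markers summed to 0 and 47 CPM against 6840 and 3109. Stellate cells with an Il1rl1 UMI kept their fibroblast markers, at 33170 against 26700 and 28400 against 23110 summed CPM in i4F 1 and 2.

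**Figure D2:**
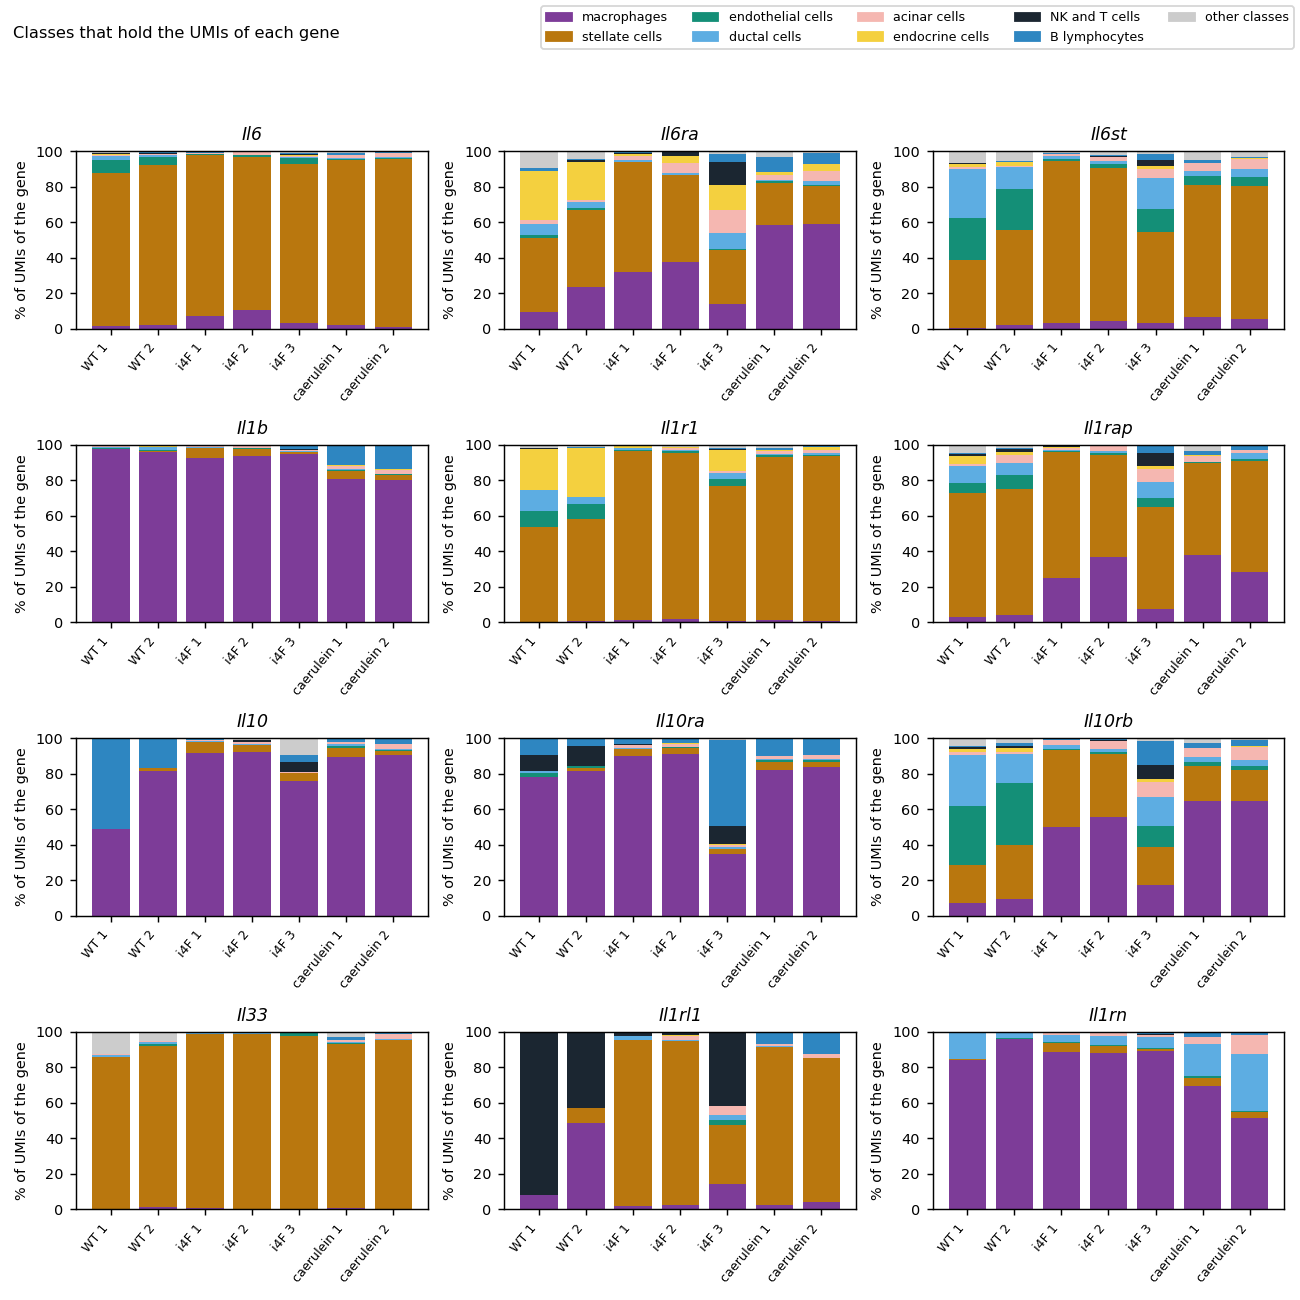
Percent of the UMIs of 12 genes, the 4 ligands with their receptor chains and Il1rn, that fell in each cell class, with 1 stacked bar per mouse. Clusters named stellate cells filled 86.4% to 94.7% of the Il6 bars and 85.5% to 98.45% of the Il33 bars, and macrophages 79.9% to 97.8% of the Il1b bars.

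**Figure D3:**
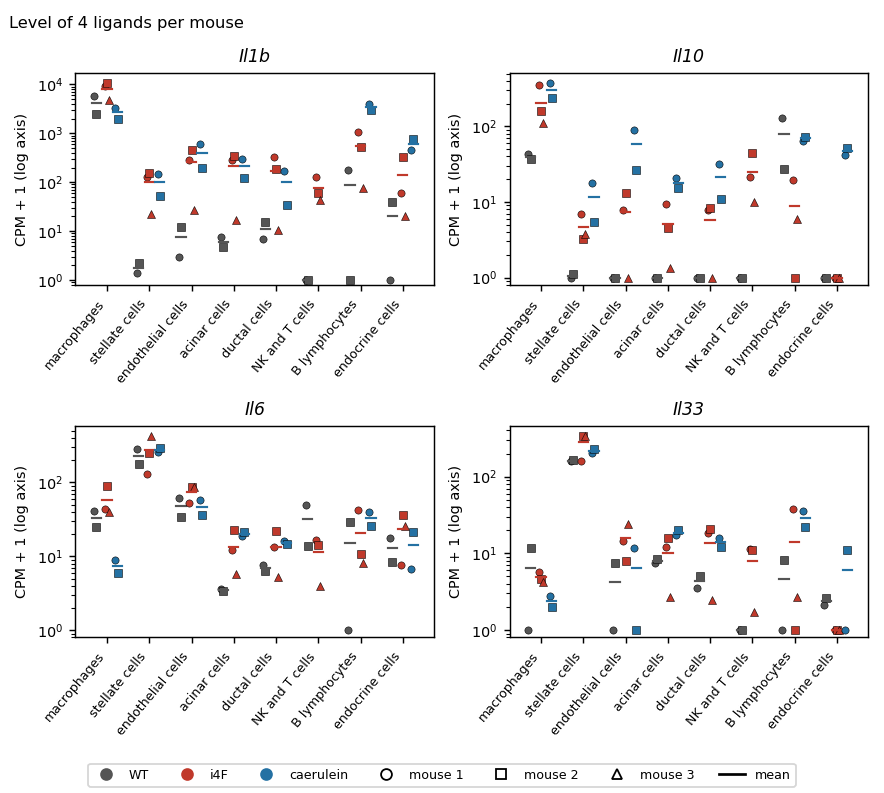
Level (CPM + 1, log axis) of the 4 ligands in 8 cell classes, with 1 point per mouse, colours for conditions, shapes for mice and a line at the mean. Il10 in macrophages separated the treated mice (108 to 374 CPM) from the WT mice (35.9 and 41.5 CPM), while Il6 in stellate cells overlapped between conditions.

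Other members marked the classes by name. In NK and T cells the leading members were receptor chains of the common gamma family, Il7r (597 ± 39.3 CPM in WT, 531 ± 201 CPM in i4F), Il2rg (492 ± 47.7 and 331 ± 43.6 CPM) and Il2rb (408 ± 196 and 282 ± 97.7 CPM; SD, n = 2 and 3). B lymphocytes of WT mice were led by Il2rg and Il21r (274 ± 77.6 and 117 ± 50.8 CPM). Il7, the survival cytokine read through Il7r, was highest in WT lymph nodes, at 271 ± 27.7 CPM (SD, n = 2). Stellate cells were led by Il11ra1, the private receptor chain for interleukin 11, at 634 ± 40.7 CPM in WT, 320 ± 117 CPM in i4F and 440 ± 18.2 CPM in caerulein mice. Il11ra1 has a near-identical gene copy with which reads may be shared, so its level is uncertain. Mesothelium held Il18 at 113 and 154 CPM in WT mice, and ductal cells held Il17re, a chain of the receptor for an epithelial interleukin 17, at 63.2 and 86.2 CPM. Il12b, a subunit of interleukins 12 and 23, marked the dendritic-led second macrophage cluster of WT mice at 280 ± 63.6 CPM (SD, n = 2).

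The comparisons between conditions asked which members differed from WT mice in each class, as the design sets i4F and caerulein pancreata beside WT. Over all cells, where more cells of a type and more RNA per cell cannot be told apart, 54 members were tested. In caerulein mice 7 passed an adjusted p of 0.05, against 9.08% of all 18340 genes (5.15% higher, 3.94% lower). The 4 that rose were Il10, Il10ra, Il1rn and Il4ra, the ligand-binding chain for interleukin 4. Il10 stood at 3.27 and 3.15 CPM in WT and at 143 and 78.3 CPM in caerulein mice, a log2 fold change of 5.52 ± 0.83 (SE, adjusted p 0.0322). Il1rn rose by 2.87 ± 0.45, Il10ra by 2.18 ± 0.22 and Il4ra by 1.5 ± 0.28. The 3 that fell were Il17d, Il7 and Il17rd, with log2 fold changes of -2.92 ± 0.52, -2.09 ± 0.45 and -1.51 ± 0.32. No member passed in i4F mice with edgeR, nor did any gene (0%), although 24 members had an unadjusted p under 0.05 (34.8% of all genes did) and DESeq2 called 22 (23.7%). Without i4F 3, 37 of 55 members passed in i4F mice, where 49.8% of all genes did. Leaving out any of WT 1, WT 2, caerulein 1 or caerulein 2 left 0 caerulein calls, among members and among all genes (0%). The median log2 fold change of the members was 0.72 in i4F and 0.40 in caerulein mice, beside 0.04 and -0.06 over all genes.

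Stellate cells held most of the calls. In i4F mice 15 of 39 tested members passed, against 20.6% of all 14818 genes, 12 of them higher (12% of all genes were) and 3 lower (8.58%). In caerulein mice 10 of 39 passed (17.1% of all genes), 8 higher (9.99%) and 2 lower (7.1%). The members' median log2 fold changes were 0.54 and -0.12, beside 0.02 and -0.04 over all genes. The i4F count was 25 of 43 without i4F 3 (47.8% of all genes), 3 without i4F 1 (2.56%) and 0 without i4F 2, WT 1 or WT 2 (0.188%, 0.0637% and 0.0924%). The caerulein count was 1 without WT 2 (0.179% of all genes) and 0 without WT 1, caerulein 1 or caerulein 2 (0.0463%, 0.0703% and 0.271%). In the clusters led by fibroblast genes, a setting chosen after the data were seen, 22 of 36 members passed in i4F (47.7% of all genes) and 17 in caerulein mice (37.8%). With only the 2 groups compared in the fit, the i4F count was 1 of 38 (0.757% of all genes). The WT mouse in the same series of library names as the treated mice was WT 1 for i4F and WT 2 for caerulein mice, and both counts were 0 with that one alone, its spread being taken from the other groups.

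Among the ligands, Il11, a gp130 cytokine tied to fibroblast activation, rose in stellate cells under both treatments. It was at 5.62 and 5.59 CPM in WT, at 218, 224 and 73.0 CPM in i4F, and at 70.1 and 29.6 CPM in caerulein mice, every treated mouse being above both WT mice. Its log2 fold change was 5.08 ± 0.70 in i4F (SE, adjusted p 0.0169) and 3.33 ± 0.67 in caerulein mice (adjusted p 0.0252; 2.48 without caerulein 1). The first activated stellate cluster of i4F mice held Il11 at 237 ± 20.2 CPM (SD, n = 3) and that of caerulein mice at 49.8 ± 28.6 CPM (n = 2). Il16, a chemoattractant for T cells, rose in i4F mice from 0.749 and 0.986 CPM to 3.74, 3.97 and 4.21 CPM (2.29 ± 0.36). The part of leukocyte RNA in the Il16 call was not tested. Il19 had 0 UMIs in WT stellate cells and 130 in those of i4F mice. Its mean level over the i4F mice was at least 7.97-fold higher, against a floor of 3 UMIs over both WT mice. Over all cells, i4F 1, 2 and 3 held 54, 78 and 2 Il19 UMIs, so that i4F 3 gave little to this mean. Il17d, a member of the interleukin 17 family found in non-immune cells, fell from 10.9 and 13.3 CPM to 0.762, 0.993 and 3.96 CPM in i4F and to 0.609 and 1.07 CPM in caerulein mice (-2.87 ± 0.68 and -3.80 ± 0.81; adjusted p 0.0330 and 0.0278). Il34, a ligand of the macrophage receptor Csf1r, was at 87.7 and 67.5 CPM in WT and at 6.60, 4.62 and 40.3 CPM in i4F and 15.9 and 23.8 CPM in caerulein mice. It did not pass in i4F mice (-2.07 ± 0.86, adjusted p 0.117). It did without i4F 3 (-3.62, adjusted p 0.000141), whose cells named stellate were mostly mesothelial-led. Il6 and Il33 did not pass in stellate cells in either comparison (Il6 0.42 ± 0.47 and 0.42 ± 0.51, adjusted p 0.531 and 0.567; Il33 0.96 ± 0.35 and 0.58 ± 0.37, adjusted p 0.0860 and 0.275).

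Among the receptor chains, Il1rl1 rose most plainly in stellate cells. It had 3 UMIs in WT stellate cells, all of them in WT 2, 573 in i4F and 278 in caerulein mice. The ratio of i4F to WT levels was 39.2 (exact 95% counting interval 13.3 to 191) and that of caerulein to WT 37.8 (12.8 to 185), with adjusted p of 0.0196 and 0.0187 (0.077 and 0.0682 without WT 2). Il13ra1, a chain of the type II interleukin 4 receptor, rose from 20.6 and 17.5 CPM to 52.0, 60.3 and 28.4 CPM in i4F (1.47 ± 0.32) and to 38.01 and 51.5 CPM in caerulein mice (1.38 ± 0.34). Il1r1 rose in caerulein mice (1.12 ± 0.30, adjusted p 0.0471), and was at 0.11 ± 0.27 in i4F mice (adjusted p 0.785). Il17rd, which encodes the signalling regulator Sef, fell from 13.9 and 14.5 CPM to 4.41, 3.33 and 7.67 CPM in i4F and to 3.80 and 5.33 CPM in caerulein mice (-1.38 ± 0.37 and -1.51 ± 0.42). A further 3 receptor chains passed in i4F mice at low levels. Il18r1 (2.89 ± 0.62) and Il2rg (2.92 ± 0.78) were higher, and Il2ra (-3.89 ± 0.92) was lower. Il2rg stood at 492 ± 47.7 CPM in WT NK and T cells (SD, n = 2), and the part of lymphocyte RNA in its call was not tested. Of the i4F stellate clusters the mesothelial-led one held Il18r1 at 133, 241 and 2.97 CPM and the other at 0.353, 0.265 and 0 CPM.

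Among the antagonists, Il1r2 rose in stellate cells of both treatments. It stood at 1.31 and 7.78 CPM in WT, at 18.4, 30.6 and 21.0 CPM in i4F (2.40 ± 0.63, adjusted p 0.0414), and at 42.2 and 40.1 CPM in caerulein mice (3.22 ± 0.68, adjusted p 0.0276). The log2 fold change of Il1r2 depended on the WT mouse, at 1.65 without WT 1 and 4.41 without WT 2 in i4F and at 2.47 and 5.22 in caerulein mice. Il1rn had 1 UMI in WT stellate cells against 394 in i4F and 193 in caerulein mice, ratios of 80.8 (exact 95% interval 14.4 to 3200) and 78.8 (14.0 to 3130). The chromosome 1 block that holds Il1r2, Il1r1, Il1rl2, Il1rl1, Il18r1 and Il18rap (chr1:40074079-40551705, GRCm38) had 5 tested members in stellate cells. Of these, 3 passed in i4F (Il1r2, Il1rl1 and Il18r1) and 3 in caerulein mice (Il1r2, Il1r1 and Il1rl1), where 20.6% and 17.1% of all genes did.

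**Figure D4:**
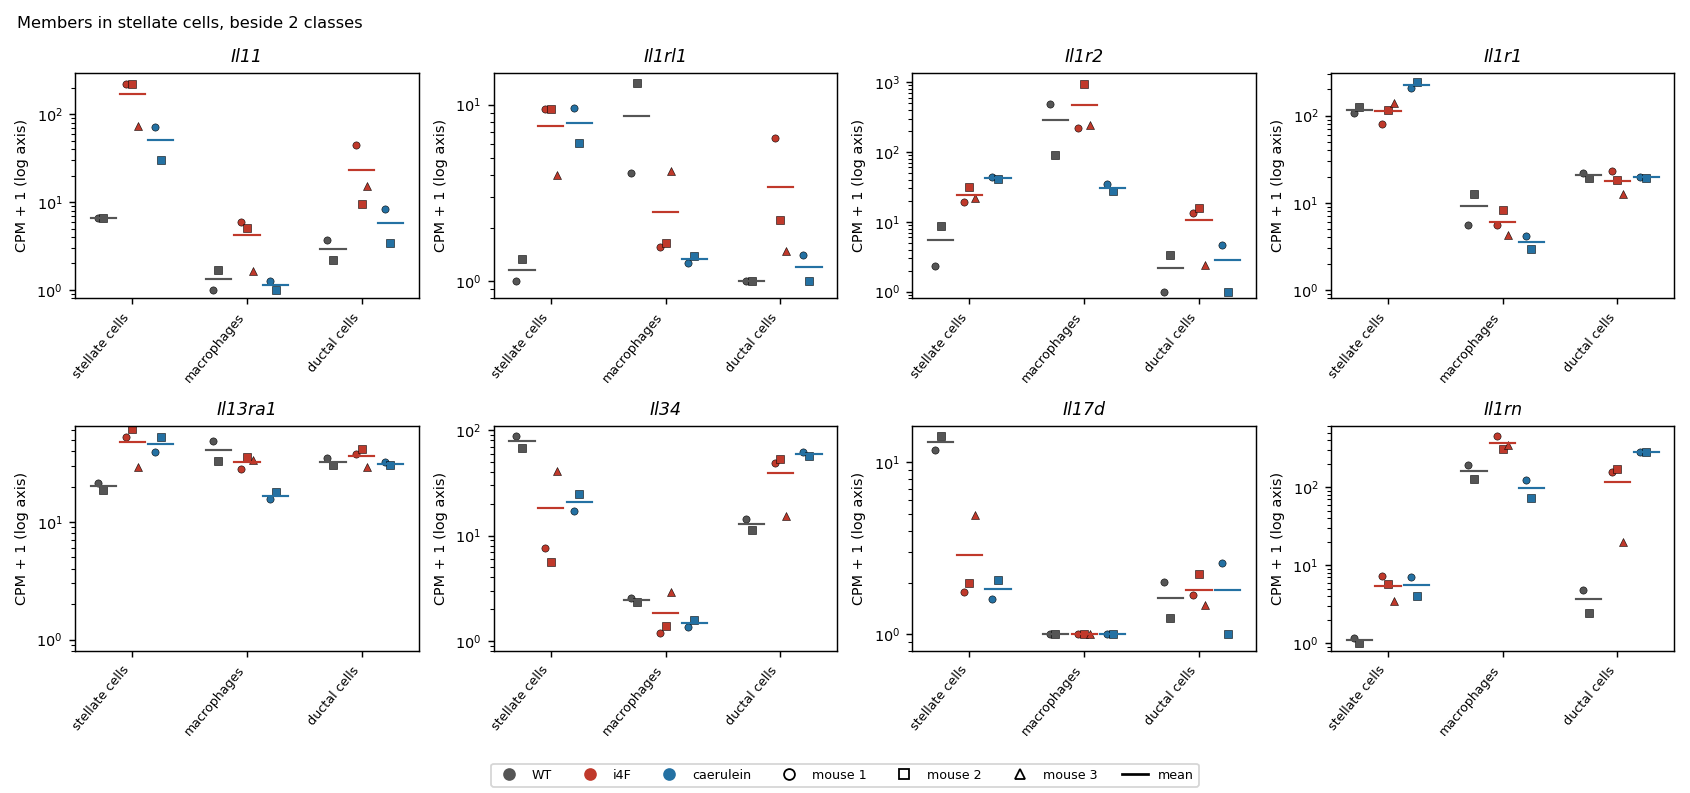
Levels (CPM + 1, log axis) of 8 members in stellate cells, beside macrophages and ductal cells, with 1 point per mouse, colours for conditions and a line at the mean. In stellate cells Il11 (29.6 to 224 CPM against 5.59 and 5.62) and Il1r2 (18.4 to 42.2 CPM against 1.31 and 7.78) of every treated mouse lay above both WT mice, and Il17d (0.609 to 3.96 CPM against 10.9 and 13.3) below them.

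Genes carried by macrophages were also called in stellate cells. Il1b was at 0.375 and 1.21 CPM in WT stellate cells, at 125, 151 and 21.5 CPM in i4F (6.97 ± 1.2, adjusted p 0.0198), and at 147.5 and 51.3 CPM in caerulein mice (7.00 ± 1.23, adjusted p 0.0192). Il10 had 1 UMI in WT stellate cells, against 322 in i4F and 508 in caerulein mice, ratios of 66.1 (exact 95% interval 11.8 to 2620) and 207 (37.1 to 8210). Il1a, the second interleukin 1 ligand, had 3 UMIs in WT and 844 in i4F stellate cells, a ratio of 57.7 (19.7 to 280). Myeloid marker genes moved with these members. Of 25 such markers, 13 to 24 per mouse had 50 or more UMIs, and their median level in stellate cells, as a percent of the level in macrophages, was 0.0318% and 0.231% in WT, 1.73%, 1.11% and 1.201% in i4F, and 4.88% and 3.25% in caerulein mice. On the same scale Il1b was at 0.00651% and 0.0489%, 1.38%, 1.42% and 0.456%, and 4.38% and 2.59%. Il10 was at 0% and 0.305%, 1.73%, 1.39% and 2.51%, and 4.55% and 1.88%, and Il1rn at 0.0968% and 0%, 1.41%, 1.54% and 0.709%, and 4.99% and 4.28%. In i4F 3 Il1b and Il1rn lay below the marker median and Il10 above it. The part of macrophage RNA in their calls was not tested. Il1r2 was at 126% and 153% of its macrophage level in caerulein stellate cells. That level averages the neutrophil-led cluster, at 1929 and 1699 CPM, and the other macrophage clusters, at 8.04 to 24.2 CPM, and the part of RNA of the former in the Il1r2 call was not tested.

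**Figure D5:**
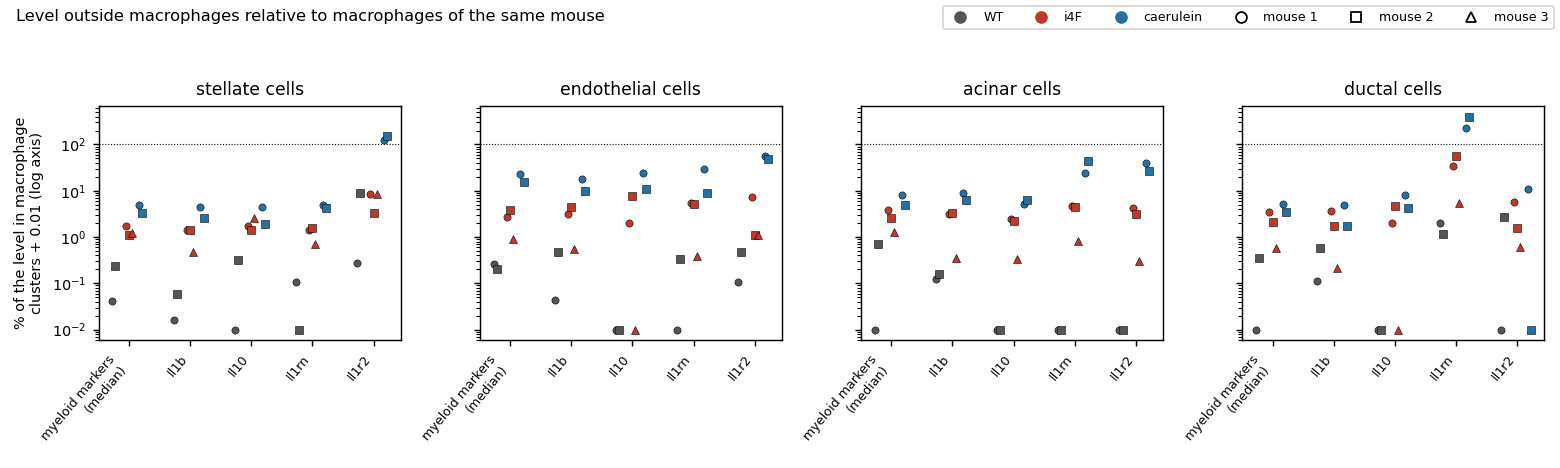
Level of Il1b, Il10, Il1rn and Il1r2 in 4 other cell classes as a percent of the level in the macrophage clusters of the same mouse (0.01 added, log axis, dotted line at equal levels), beside the median of the myeloid markers. In stellate cells Il1b, Il10 and Il1rn of caerulein mice lay between 1.88% and 4.99% (marker median 4.88% and 3.25%), Il1r2 there at 126% and 153%, and Il1rn in caerulein ductal cells at 228% and 398%.

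In macrophages, Il10 was the member that rose in caerulein mice, by 3.06 ± 0.60 on the log2 scale (SE, adjusted p 0.0403). It was 1 of 3 members that passed out of 41 tested, against 5.66% of all 12077 genes (2.24% higher, 3.42% lower), and both others fell. Il13ra1 went from 47.6 and 31.9 CPM to 14.7 and 16.8 CPM (-1.25 ± 0.27, adjusted p 0.0434). Il1rl1 went from 3.07 and 12.2 CPM to 0.271 and 0.387 CPM (-4.64 ± 1.01, adjusted p 0.0446; -3.13 without WT 2). The count was 3 without the neutrophil-led clusters (5.81% of all genes), 5 in cells with a UMI of C1q, a macrophage product (8.76%), and 0 without any of WT 1 (0.586%), WT 2, caerulein 1 or caerulein 2 (0% each). Il6 was lower in both caerulein libraries but did not pass (-2.13 ± 0.53, adjusted p 0.0567). In i4F mice no member passed with edgeR and 1 gene did (0.00828%), while 13 members had an unadjusted p under 0.05 (19.9% of all genes) and DESeq2 called 6 (4.4%). The i4F change of Il10 was 2.53 ± 0.57 (adjusted p 0.141), that of Il1b 1.11 ± 0.51 (0.275) and that of Il1rn 1.31 ± 0.35 (0.146). Without i4F 3 there were 13 calls, with 12.4% of all genes called. Il10 (2.87, adjusted p 0.0101) and Il1rn (1.39, adjusted p 0.0494) were among them and Il1b (1.41, adjusted p 0.0842) was not. In cells with a C1q UMI, 5 members passed in i4F mice, where 1.81% of all genes did, and without the neutrophil-led clusters 0 did (0.00823%). Il12b, at 191 and 74.6 CPM in WT macrophages, was at 4.77, 0.511 and 183 CPM in i4F and at 2.22 and 2.32 CPM in caerulein mice, so that of the treated mice only i4F 3 fell within the WT range. Its levels in the dendritic-led clusters were 280 ± 63.6 CPM in WT (SD, n = 2) and 74.7, 18.3 and 269 CPM in i4F mice, against 7.11 ± 10.06 CPM and 0.505, 0 and 10.3 CPM in the first macrophage clusters, and the caerulein cells named macrophages included no dendritic-led cluster.

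In ductal cells Il1rn rose in caerulein mice by 6.84 ± 1.07 (SE, adjusted p 0.0219), to 228% and 398% of the level in macrophages, where the myeloid marker median was 5.07% and 3.48%. Il1rn was 1 of 3 of 31 members that passed, against 3.53% of all 11619 genes (2.88% higher), and all 3 were higher. Il3ra, the ligand-binding chain for interleukin 3, rose from 8.94 and 8.60 CPM to 29.4 and 34.4 CPM (2.02 ± 0.39, adjusted p 0.0355). Il10 had 0 UMIs in WT and 84 in caerulein ductal cells, at least 68.3-fold higher, and stood at 8.19% and 4.20% of its macrophage level. In i4F mice no member passed with edgeR (1 gene, 0.00861%), with 14 at an unadjusted p under 0.05 (17.4% of all genes) and 4 called by DESeq2 (3.21%). Ductal Il1rn in i4F mice was at 34.2%, 55.7% and 5.38% of the macrophage level and changed by 5.53 ± 1.00 (adjusted p 0.190; 0.000120 without i4F 3, where 16 members and 26.5% of all genes passed). The ductal caerulein count was 0 without any of WT 1, WT 2, caerulein 1 or caerulein 2, where 0% to 0.0169% of all genes passed.

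Endothelial cells had 6 members called in caerulein mice, all higher, of 21 tested, against 4.11% of all 8153 genes (3.54% higher). The part of lymphatic cells, which the WT class left out, in these calls was not tested. Il4ra went from 43.9 and 42.2 CPM to 93.1 and 105 CPM (1.29 ± 0.25, adjusted p 0.0243), and Il17ra, the common chain of interleukin 17 receptors, from 5.25 and 4.47 CPM to 21.8 and 15.9 CPM (2.13 ± 0.46, adjusted p 0.0367). The others were Il10, with 0 UMIs in WT and 114 in caerulein mice (at least 86.8-fold higher), Il1b (5.99 ± 1.31; 4.75 without caerulein 1, 7.75 without WT 2), and Il1rn and Il1r2. Il1rn had 1 and Il1r2 had 2 UMIs in WT endothelial cells, with ratios of 133 (22.7 to 5370) and 39.3 (9.84 to 342). Endothelial Il1b stood at 18.2% and 9.64% of the macrophage level, Il10 at 23.8% and 10.8%, and the myeloid marker median at 23.3% and 15.1%, and its part in these calls was not tested. Leaving out WT 1 or WT 2 left 1 call (1.25% and 2.62% of all genes), caerulein 2 left 3 (2.26%) and caerulein 1 left 0 (0.271%). In i4F mice no member passed with edgeR (0.81% of all genes did), 10 had an unadjusted p under 0.05 (18.2%), DESeq2 called 5 (3.58%), and without i4F 3 there were 9 calls, where 14.3% of all genes were called.

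In acinar cells no member passed with edgeR in i4F (9 genes, 0.0808%) or caerulein mice (4 genes, 0.0359%), with 11 and 10 of 24 members at an unadjusted p under 0.05 (25.1% and 21.9% of all genes) and 5 and 3 called by DESeq2 (8.01% and 8.15%). Without i4F 3, 10 members passed in i4F mice, beside 32.7% of all genes. By the mean over mice Il1b had the highest acinar level of the members in both treated groups, although Il11ra1 exceeded it in i4F 3. Acinar Il1b was at 285.5, 345 and 16.3 CPM in i4F and 302 and 123.5 CPM in caerulein mice, against 6.52 and 3.67 CPM in WT. Its log2 fold changes were 5.07 ± 1.25 and 4.83 ± 1.28 (SE, adjusted p 0.0995 and 0.0945). Il1rn had 0 UMIs in WT acinar cells, against 143 in i4F and 245 in caerulein mice (at least 6.58-fold and 15.8-fold higher, adjusted p 0.109 and 0.0777). As a percent of the macrophage level, acinar Il1b was at 3.14%, 3.25% and 0.345% in i4F and 8.98% and 6.25% in caerulein mice, where the myeloid marker median was 3.80%, 2.56% and 1.25%, and 8.24% and 4.83%. Il18 is a ligand of the interleukin 1 family that epithelia make. Acinar Il18 was at 1.30 and 3.67 CPM in WT, at 130, 74.3 and 8.66 CPM in i4F, and at 4.92 and 2.89 CPM in caerulein mice. The second acinar cluster of i4F mice, led by ductal genes, held Il18 at 90.3 ± 35.7 CPM (SD, n = 3). The i4F change of Il18 was 4.50 ± 1.17 (SE, adjusted p 0.106; 4.97 and 0.000247 without i4F 3), and from 3.76 to 5.49 over the mice left out. The i4F acinar cells with an Il18 UMI carried fewer acinar and more ductal markers than those without. The 5 acinar markers that the count tables list summed to 203 against 2542, 426 against 5206 and 3186 against 11580 CPM. Ductal markers summed to 12360 against 9473, 11840 against 7103 and 12270 against 3624 CPM.

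Lymphocytes gave a single call. In NK and T cells Il1b had 0 UMIs in WT and 101 in i4F mice, at least 10.7-fold higher (adjusted p 0.0428), 1 of 16 members tested against 1.51% of all 3574 genes (0.28% higher). Its level there was 0.559% to 1.41% of that in macrophages, where the marker median was 0.630% to 2.34%, and the call was lost in cells with at least 500 genes (1.89% of all genes) and without WT 1 (0.215%), WT 2 (1.76%) or i4F 2 (0.256%), and without i4F 3 (3.13% of all genes) it remained. Il1rl1 changed by -2.22 ± 0.59 in these cells (adjusted p 0.138). Il17a, the effector cytokine of type 17 lymphocytes, was at 5.47 and 12.8 CPM in WT and at 108, 39.7 and 16.9 CPM in i4F mice, on 1 to 23 UMIs per mouse. In B lymphocytes 0 of 22 members passed with edgeR (0.373% of all genes), 3 had an unadjusted p under 0.05 (10.7%), and DESeq2 called 2 (1.26%), and without i4F 3 1.89% of all genes passed. Il10 in B lymphocytes was at 130 and 26.2 CPM in WT and at 18.6, 0 and 4.98 CPM in i4F mice. The 2 classes differ in makeup, since the WT cluster carried plasma cell genes, whereas the plasma cell-led i4F cluster, with Il10 at 98.1 ± 51.7 CPM (SD, n = 3), was kept apart.

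The wider signalling genes are given first for stellate cells, where 12% of all genes rose in i4F and 9.99% in caerulein mice. Of 17 acute-phase and STAT3 response genes, 15 were tested in stellate cells. In i4F mice 5 rose and 0 fell, among them Saa3 (7.69 ± 0.58), the metalloproteinase inhibitor Timp1 (5.71 ± 0.66) and the iron-binding Lcn2 (4.32 ± 0.59), with a median log2 change of 4.12 beside 0.02 over all genes. In caerulein mice 3 rose and 0 fell (Saa3 8.41 ± 0.61, Timp1 5.20 ± 0.65, Lcn2 2.76 ± 0.58), with a median of 0.03. The gp130 and common chain list holds cytokines and receptors without an interleukin name, not all of which use these chains. Of its 14 tested genes, 5 rose and 0 fell in i4F and 4 and 0 in caerulein mice. Lif, a gp130 cytokine, rose by 2.40 ± 0.21 and 2.25 ± 0.22, and Clcf1 by 2.42 ± 0.38 and 1.71 ± 0.40. Of 16 tested genes of interleukin 1 signalling, 2 rose and 0 fell in each comparison, the inflammasome genes Nlrp3 and Pycard, about the share of all genes. Of 15 tested JAK-STAT genes, 2 rose and 0 fell in i4F (Jak2 0.77 ± 0.20, Jak3 1.91 ± 0.41), while 2 rose and 1 fell in caerulein mice (Jak3, Ptpn6 and, lower, Stat2), also about that share. Nlrp3, Ptpn6 and Osm are also expressed by macrophages, and the myeloid marker median in stellate cells was 0.0318% and 0.231% of the macrophage level in WT against 1.11% to 4.88% in treated mice. The part of macrophage RNA in their calls was not tested. In endothelial cells 4 of 8 tested genes of the gp130 and common chain list rose in caerulein mice, where 3.54% of all genes did, and 2 in i4F mice (0.699%), and 2 of 11 acute-phase genes rose in each. Of 13 JAK-STAT genes tested there, 1 rose and 1 fell in caerulein mice (0.564% of all genes fell), and 2 of 15 interleukin 1 signalling genes rose. The endothelial myeloid marker median was 0.254% and 0.197% of the macrophage level in WT, 2.76%, 3.87% and 0.912% in i4F, and 23.3% and 15.1% in caerulein mice, and its part was not tested. In caerulein ductal cells 2 of 15 interleukin 1 signalling and 1 of 12 acute-phase genes rose (2.88% of all genes), and 1 of 15 JAK-STAT genes fell (0.645%). The ductal myeloid marker median was 5.07% and 3.48% of the macrophage level, and its part was not tested. In i4F NK and T cells 1 of 11 JAK-STAT and 1 of 2 gp130 and common chain genes fell (1.23% of all genes). In i4F mice 3 of 9 acute-phase genes rose in NK and T cells (0.28% of all genes) and 3 of 10 in B lymphocytes (0.107%). The myeloid marker median there went from 0% in both WT mice to 2.34%, 0.883% and 0.630% of the macrophage level in NK and T cells and to 6.27%, 2.40% and 0.793% in B lymphocytes, and its part was not tested. In macrophages of i4F mice 1 gene of these lists passed with edgeR, where 0.00828% of all genes did. It was Reg3g of the acute-phase list (5.90 ± 0.48, adjusted p 0.0276). There 7 of 12 acute-phase, 7 of 14 gp130 and common chain, 4 of 16 interleukin 1 signalling and 0 of 16 JAK-STAT genes had an unadjusted p under 0.05, beside 19.9% of all genes (DESeq2 was not counted for these lists). In caerulein macrophages, with the same numbers tested per list, 4 passed, where 5.66% of all genes did (2.24% higher, 3.42% lower). Csf3 (6.28 ± 1.31) and Reg3g (3.36 ± 0.51) were higher and Stat2 (-1.58 ± 0.33) and Tslp (-3.84 ± 0.88) lower. The part of RNA from acinar cells in the acute-phase calls of other classes was not tested.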

How the data were processed

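The authors digested whole pancreata with collagenase P, dispase and trypsin, made 10x Genomics 3′ v3 libraries and ran Cell Ranger on GRCm38 (mm10), Seurat v3 and SoupX. Cells below 150 genes or above 5% of mitochondrial UMIs were discarded, the authors giving the latter as a percent value per cell in the deposited cell annotation, and clusters were named within each condition (SCTransform, 20 principal components, resolution 0.2). The deposited tables hold whole-number UMI counts per gene and cell, 1 table per condition, with 28166 (WT), 31676 (i4F) and 28764 (caerulein) genes. Whether the counts precede or follow SoupX is not given in the sources used here, nor is any doublet removal, and none was done here. CPM is scaled to the UMIs of listed genes, which leave out most of the acinar marker list. Genes that a table does not list were set to 0 there. No column belonged to another sample (0).

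UMIs were summed per mouse and class (at least 20 cells) and tested with edgeR 4.0.16 in R 4.3.3 (TMM, filterByExpr, quasi-likelihood F test, all 3 groups in a fit, Benjamini-Hochberg over all genes, threshold 0.05). Errors of log2 fold changes are SE. Each mouse is a replicate. Marker folds had 20 CPM added. Intervals are exact and cover counting error only, as do floors (3 UMIs over a group). Gene positions and promoters came from GENCODE and RefSeq tables of GRCm38, in which 79 and 62 members were found. The script was tested on simulated data. Alternatives were DESeq2 1.42.0, RLE factors, no filter, a replicate block, fits of 2 groups, cells with at least 500 genes, cells with a C1q UMI, clusters left out, the top 2% of cells by UMIs left out, and each mouse left out. Replicate numbers were not taken as pairs of mice.

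Members and lists were chosen with earlier results of these data known. Named are Il6, Il1b, Il10, Il33, their receptor chains and antagonists, members past the threshold (up to 8 per comparison by size of change) and the 3 highest per class. Il16, Il18r1, Il12b and Il17a fall outside this rule and were chosen after their values were seen.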

Additional observations from a re-analysis of the deposited data

How the results depend on the processing

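Calls depended strongly on the fit, and the cause was not tested. Called members with DESeq2 numbered 22 in i4F and 18 in caerulein mice over all cells, 6 and 8 in macrophages, 5 in i4F endothelial, 5 and 3 in acinar, 4 and 6 in ductal cells and 2 in B lymphocytes. With no filter on low counts they numbered 17 over all i4F cells, 15 and 11 in macrophages, 24 and 20 in stellate, 11 and 12 in endothelial, 10 and 11 in acinar and 16 and 10 in ductal cells, 4 in NK and T cells and 3 in B lymphocytes. With a replicate block they numbered 32 and 30, 8 and 6, 24 and 20, 8 (endothelial, i4F), 10 and 8, 13 and 12, 2 and 1 in the same order. The labels do not pair same-numbered mice. Correlations of their deviations from the group mean lay between -0.369 and 0.0767. With 2 mice in a group these deviations mirror each other, so that they cannot settle whether mice were paired. Crossed numbers, tried after seeing the data for caerulein mice, gave 35 over all cells, 9 in macrophages, 20 in stellate, 12 in acinar and 13 in ductal cells. Fits of only the 2 groups gave 29 in all caerulein cells, 7 in macrophages, 1 (i4F) and 19 in stellate, 10 in endothelial, 10 in acinar and 12 in ductal cells. C1q-positive macrophages gave 5 and 5, fibroblast-led clusters 17 in caerulein stellate cells, and cells with at least 500 genes 0 in NK and T cells. Without 1 mouse, counts ranged from 0 to 37 (i4F) and 0 to 0 (caerulein) over all cells, 0 to 13 and 0 to 0 in macrophages, 0 to 25 and 0 to 1 in stellate, 0 to 9 and 0 to 3 in endothelial, 0 to 10 and 0 to 0 in acinar, 0 to 16 and 0 to 0 in ductal cells, 0 to 2 in NK and T cells and 0 to 1 in B lymphocytes. Over all genes the share called ranged, over the comparisons run, from 1.26% to 29.9% with DESeq2, from 0.96% to 16.3% with no filter, from 0.64% to 44.4% with the block, from 11.8% to 47.2% with crossed numbers from 0% to 46.1% in fits of only the 2 groups, from 1.89% to 49.8% without i4F 3 and from 0% to at most 2.72% without any other mouse. RLE factors kept every count within 1.5 times. Of the log2 fold changes under all alternatives, 624 kept their direction and side of the threshold, 100 newly passed, 166 no longer passed and 7 turned sign. The last were macrophage Il1b in caerulein mice (0.27 without WT 1, from -1.02 to 0.27 over the mice left out), stellate Il6 in i4F mice (-0.15 with the block, -0.12 without i4F 3, from -0.12 to 0.75 over the mice left out) and stellate Il1r1 in i4F mice (-0.11 with the block, -0.09 without WT 1, -0.11 without i4F 3, from -0.11 to 0.35 over the mice left out, and -0.08 in fibroblast-led clusters), none of which passed in the fit reported. In cells with at least 500 genes, caerulein shares were 57.79% for Il6ra (macrophages), 75.93% for Il6st and 91.45% for Il1rl1 (stellate), and the WT stellate share of Il1rap was 71.88%. Without the top 2% of cells by UMIs they were 60.30% for Il6ra, 75.90% for Il6st, 93.24% for Il1r1 and 64.71% for Il10rb (macrophages), and 71.53% for Il1rap in WT.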
